A study of Homo sapiens with 60 samples.

Results

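The aminoacyl-tRNA synthetases are the enzymes that attach each amino acid to its tRNA. Their mRNA was examined in SW1783, an established human astrocytoma cell line, after 24 h with a vehicle or with herbal water extracts. The members were 36 synthetase genes named in a list of symbols, each matched by its Ensembl gene ID to 1 of the 60675 genes of the deposited table. They comprise 20 cytosolic enzymes and 16 mitochondrial enzymes, whose symbols end in 2. All 36 were found, and all passed the filter on low counts. The control group received the vehicle (0.1% DMSO in the sample labels, 2% in the series' design text). Single-herb extracts were made from a mandarin peel (Citri Unshius Pericarpium), the rhizome Cimicifugae Rhizoma, the root Bupleuri Radix and processed aconite root (Aconiti Lateralis Radix Preparata). Yijung-tang and Banhasasim-tang are decoctions of several herbs. Each extract was given at 20, 100 and 500 µg/mL, here the low, medium and high dose, and each of these 18 groups and the vehicle had 3 libraries. Another decoction, Bojungikgi-tang, was given at the same doses with 1 library per dose and entered no test. The labels do not say that replicates came from separate cultures, so p-values measure the spread between these libraries, which may be technical. The cells are 1 tumour line, and the labels give no DMSO content for the extracts.

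Cytosolic synthetases charge the tRNAs that read nuclear-encoded mRNA, while the mitochondrial enzymes, encoded by other nuclear genes and imported, charge the tRNAs of the mitochondrial ribosome. GARS1 and KARS1 are exceptions, since each encodes both the cytosolic and the mitochondrial form of its enzyme. Several cytosolic enzymes (EPRS1, IARS1, LARS1, MARS1, QARS1, RARS1 and KARS1 among them) sit in the multisynthetase complex on the scaffold proteins AIMP1, AIMP2 and EEF1E1. Many cytosolic synthetase genes are known targets of ATF4, the transcription factor translated when eIF2α is phosphorylated, as under amino acid shortage or stress of the endoplasmic reticulum.

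Each library held between 18.9 and 36.4 M counts, and the lowest count of any member in any library was 112. CPM is a gene's count relative to the library's total. It is given after TMM scaling, except for cell-type markers, whose values use total counts alone. Of 10 astrocyte markers, GFAP, S100B, SOX2, AQP4 and ALDH1L1 were at or near 0 (at most 0.418 CPM in any library). In contrast, VIM, CD44, SOX9, SLC1A3 and NES had medians of 4450, 2780, 70.1, 33.1 and 9.01 CPM. The fibroblast collagen gene COL1A1 had a median of 3250 CPM. Replicate 3 deviated most from its group in 2 cases, at the low dose of Citri Unshius Pericarpium and at the high dose of Cimicifugae Rhizoma. Sample codes place the vehicle in a set of its own and the extracts in pairs, except Bojungikgi-tang, which is alone in set 8. Set 5 holds Citri Unshius Pericarpium and Cimicifugae Rhizoma, set 6 Aconiti Lateralis Radix Preparata and Bupleuri Radix, and set 7 the decoctions Yijung-tang and Banhasasim-tang. In a comparison with the vehicle, a treatment cannot be told apart from its code set or its DMSO content, and all such comparisons share the same 3 vehicle libraries, whereas the doses of an extract and the 2 extracts of a set share their code set.

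In the vehicle, most cytosolic synthetases were expressed at higher levels than the mitochondrial ones. Per kb of annotated exon sequence, the median level was 32.9 CPM over the 20 cytosolic members and 6.10 CPM over the 16 mitochondrial members. The isoleucine enzyme IARS1 was highest at 54.1 CPM per kb, followed by the arginine enzyme RARS1 at 50.5 and the glycine enzyme GARS1 at 48.4. IARS2, the mitochondrial isoleucine enzyme, stood at 35.5 CPM per kb, the only mitochondrial member above 12.6. The cytosolic cysteine enzyme CARS1 stood at 6.09, below its mitochondrial partner CARS2 at 9.89. At the other end, TARS3, another cytosolic threonine enzyme (formerly TARSL2), stood at 1.57 CPM per kb, below all 16 mitochondrial members, of which VARS2 (valine, 2.40) and FARS2 (phenylalanine, 2.44) were lowest. Neighbours in this order were often close: AARS1 and EPRS1, at 41.7 and 40.9 CPM per kb, differed by less than the spread between their libraries. No test was made of the order.

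**Figure D1:**
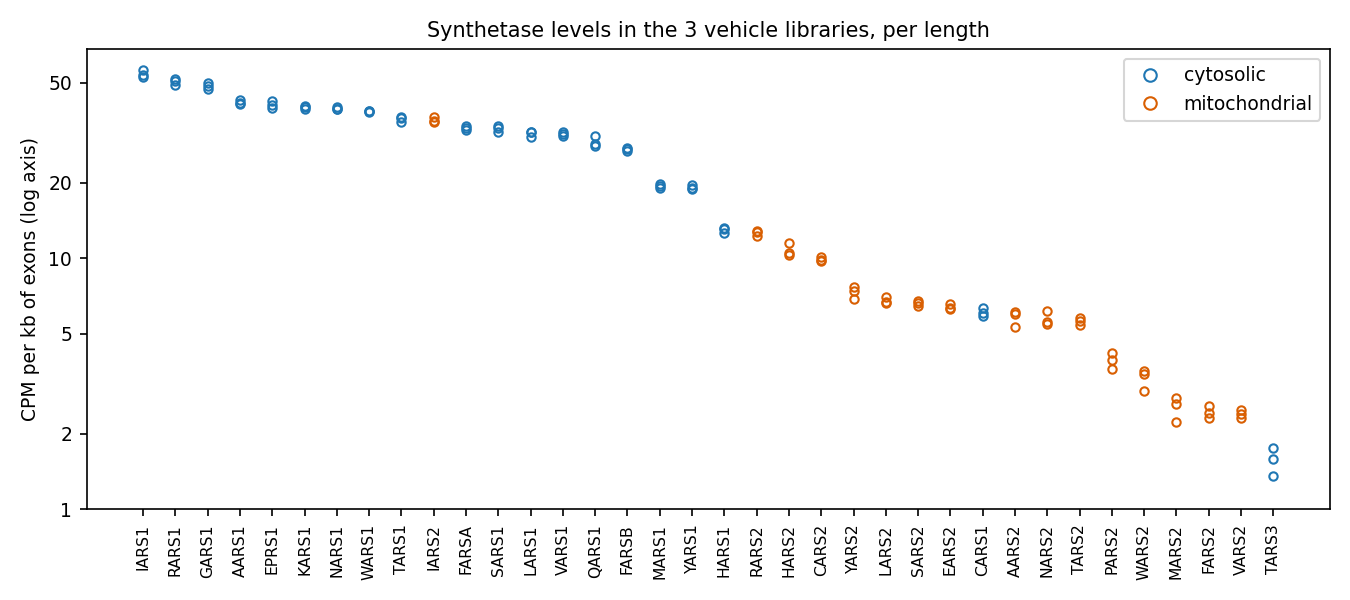
Level of each synthetase mRNA in the 3 vehicle libraries (points) in CPM per kb of exons, on a log axis, ordered by the mean and coloured by class. Cytosolic members fill the upper places except for IARS2, CARS1 lies among the mitochondrial members at 6.09, and TARS3 is lowest at 1.57 CPM per kb.

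Each dose was compared with the vehicle by edgeR's quasi-likelihood test over all 17190 genes that passed the filter. A member is said to have risen or fallen where the p-value adjusted over those genes (Benjamini-Hochberg) was under 0.05, and changes are given as log2 values with their standard error. Aconiti Lateralis Radix Preparata was the extract with the large changes, a rise of cytosolic enzymes that grew with the dose. Over the other 5 tested extracts at the high dose, log2 changes of cytosolic members lay between -0.28 and 0.28. Those of mitochondrial members lay between -0.34 and 0.35. The mean log2 CPM of the cytosolic members less that of the mitochondrial members was 2.43 ± 0.048 in the vehicle (SD, n = 3), with libraries from 2.37 to 2.46. With Aconiti Lateralis Radix Preparata it was 2.51 ± 0.030 at the low, 2.76 ± 0.012 at the medium and 3.03 ± 0.008 at the high dose. The libraries of these 3 groups did not overlap with each other or with the vehicle. In the other 15 groups the mean was between 2.34 (Citri Unshius Pericarpium, high dose) and 2.48 (the high dose of Bupleuri Radix and the medium dose of Yijung-tang).

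**Figure D2:**
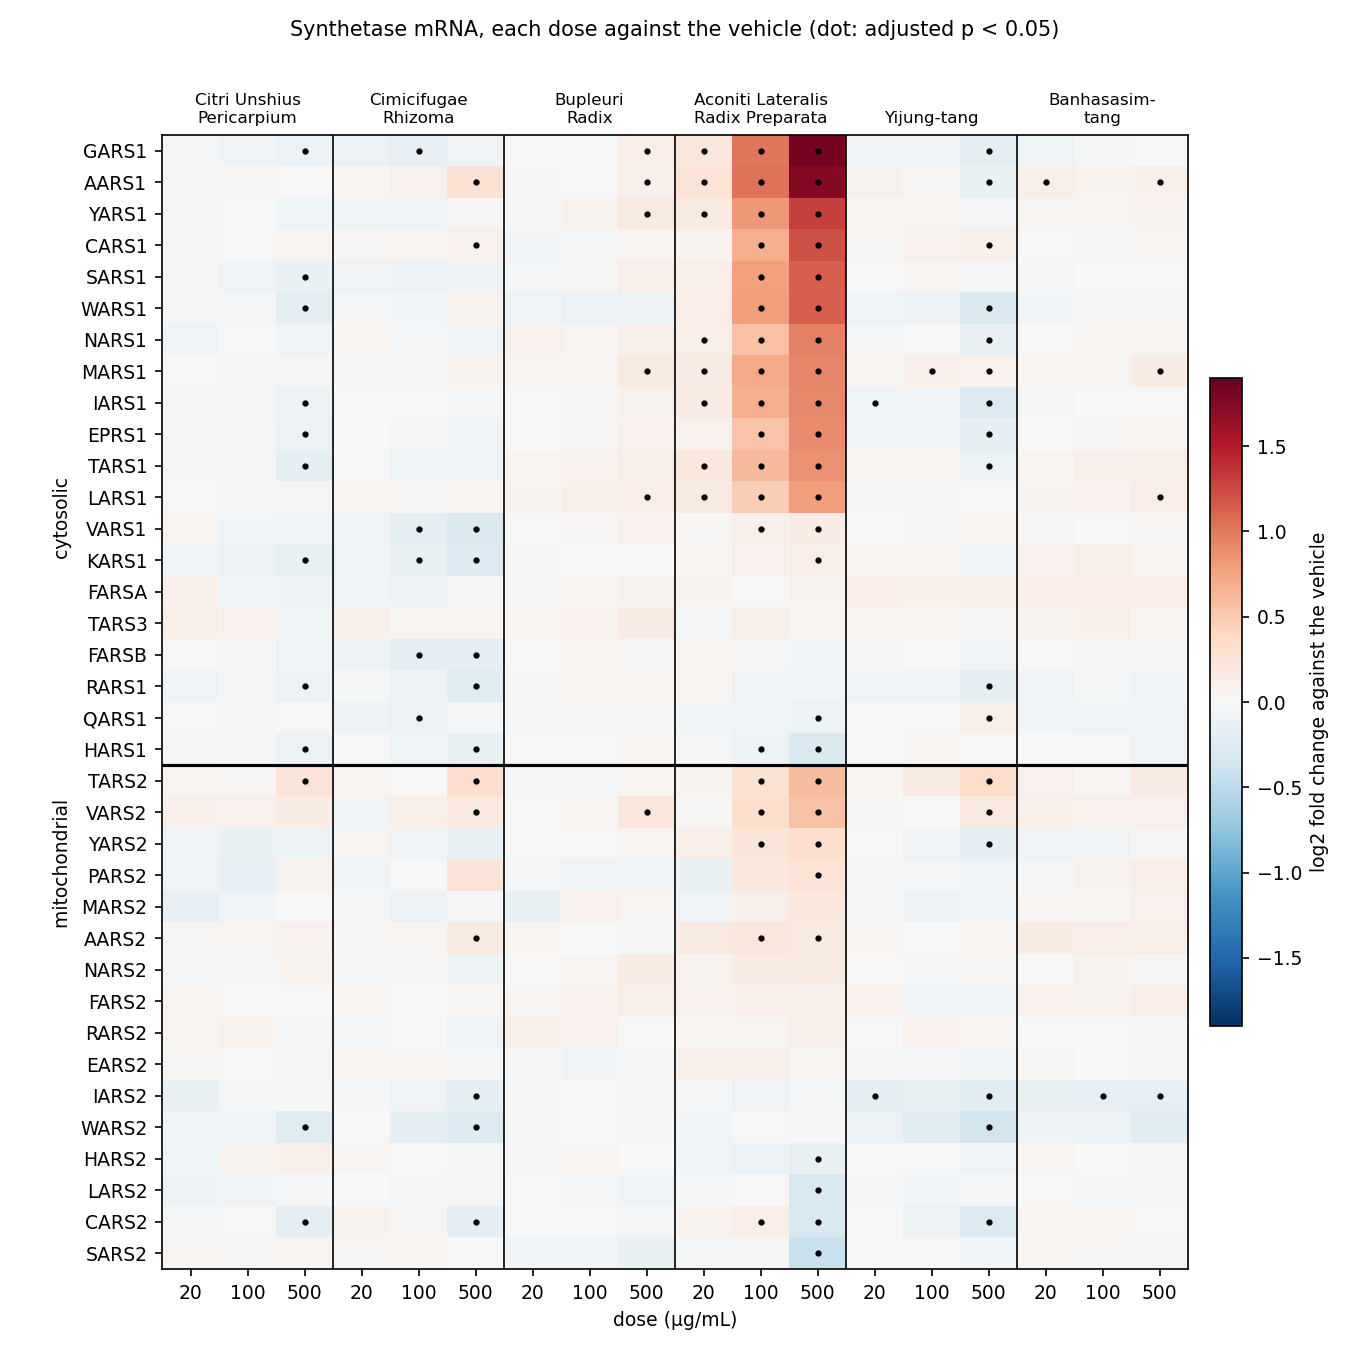
Log2 fold change of all 36 members for each dose against the vehicle, cytosolic enzymes above and mitochondrial enzymes below the thick line, ordered by the change with the high dose of Aconiti Lateralis Radix Preparata. Dots mark an adjusted p under 0.05. The deep red block is that extract's rise of 12 cytosolic members, up to 1.82 for GARS1.

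**Figure D3:**
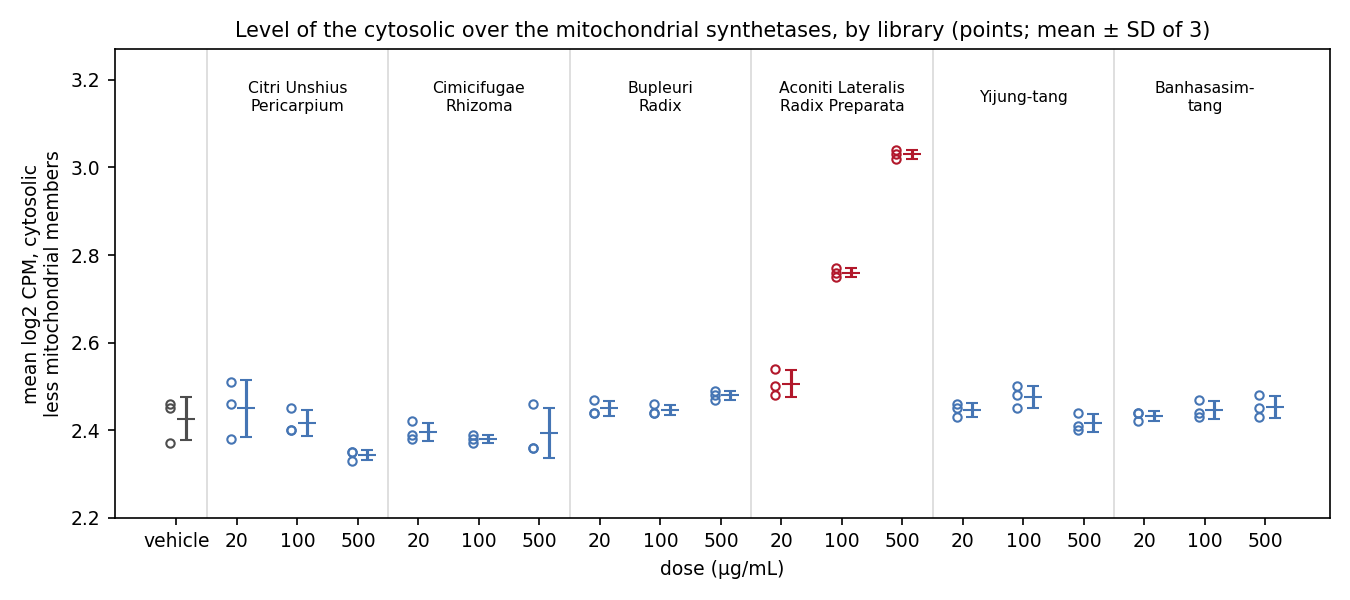
Mean log2 CPM of the 20 cytosolic less that of the 16 mitochondrial members in each library (points) with mean and SD of 3 libraries, by extract and dose. The axis does not start at 0. Only the medium and high doses of Aconiti Lateralis Radix Preparata lie far from the vehicle, at 2.76 and 3.03 against 2.43.

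At the high dose of Aconiti Lateralis Radix Preparata, 14 of 20 cytosolic members rose and 2 fell, and their median log2 change was 0.89. Of all 17190 genes tested, 31.5% rose and 28.9% fell, with a median of 0.01. A gap divided the cytosolic enzymes: 12 rose by 0.79 to 1.82, and the remaining 8 lay between -0.28 and 0.14. All 12 were called under each of the 13 alternative settings, DESeq2 and single libraries left out included. With libraries scaled by total counts alone, the median of all genes at this dose was -0.12 and not 0.01, and 12 cytosolic members rose and 4 fell.

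GARS1, the glycine enzyme, had the largest rise of the family. Its level was 201, 206 and 196 CPM in the vehicle libraries, 225, 236 and 242 at the low dose, 387, 413 and 418 at the medium dose, and 691, 699 and 733 at the high dose. The 4 groups followed each other without overlap, and the high dose exceeded the vehicle by 1.82 ± 0.0364 on the log2 scale (SE), or 3.52-fold (adjusted p = 1.45e-39). AARS1, the alanine enzyme, went from 185, 192 and 186 CPM to 221, 226 and 230 at the low, 376, 380 and 389 at the medium and 624, 628 and 627 at the high dose. Again no libraries of neighbouring groups overlapped, and the change at the high dose was 1.74 ± 0.0302 (adjusted p = 3.67e-42). GARS1 lies on chromosome 7 (30594681 to 30634033) and AARS1 on chromosome 16 (70252295 to 70289543) of GRCh38.

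YARS1, the tyrosine enzyme, and CARS1, the cysteine enzyme, came next. YARS1 was at 155, 157 and 160 CPM in the vehicle and at 383, 383 and 394 at the high dose, a change of 1.30 ± 0.0299 (adjusted p = 5.08e-37). CARS1 rose from 63.4, 60.9 and 59.0 CPM to 141, 141 and 143, by 1.21 ± 0.0333 (adjusted p = 8.85e-34). For both, every high-dose library lay far above the highest vehicle library. The serine enzyme SARS1 (1.13) and the tryptophan enzyme WARS1 (1.13) rose by similar amounts, and WARS1 went from 242, 245 and 244 CPM to 529, 520 and 550. The asparagine enzyme NARS1 rose by 0.96 and the threonine enzyme TARS1 by 0.87.

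Members of the multisynthetase complex lay on both sides of the gap. Of these, MARS1 (methionine, 0.93 ± 0.0301), IARS1 (isoleucine, 0.92 ± 0.0263), EPRS1 (glutamate and proline, 0.90 ± 0.0317) and LARS1 (leucine, 0.79 ± 0.0267) rose. QARS1 (glutamine), at 134, 132 and 144 CPM in the vehicle, was at 127, 125 and 131 at the high dose, a change of -0.09 with a 95% interval from -0.17 to -0.02. RARS1 (arginine) was at 177, 168 and 174 CPM and then at 163, 168 and 167, with an interval from -0.12 to 0.01. KARS1 (lysine) went from 164, 160 and 163 CPM to 184, 166 and 183, a change of 0.13 ± 0.0355. It was 0.00 with total counts alone. Among the scaffold proteins, AIMP2 rose by 0.38, EEF1E1 by 0.17 and AIMP1 by 0.11.

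Outside the complex, both subunits of the phenylalanine enzyme were not called (FARSA 0.06, FARSB -0.05), and neither was TARS3 (0.05). FARSA was at -0.07 and TARS3 at -0.08 with total counts alone. VARS1, the valine enzyme, went from 186, 190 and 194 CPM to 209, 207 and 213 (0.14 ± 0.0335), and its call was lost with total counts alone. HARS1, the histidine enzyme, fell from 98.7, 103 and 104 CPM to 83.2, 83.0 and 85.4 (-0.28 ± 0.0345, adjusted p = 9.43e-10). HARS1 and its mitochondrial counterpart HARS2 overlap on opposite strands of chromosome 5, and all their deposited counts are divided by estimate. The sources used here do not say whether the counting used strand, so reads of the shared stretch may not have been told apart. The same holds for MARS1, whose exons overlap those of DDIT3 on the opposite strand of chromosome 12, and DDIT3 rose by 3.92 ± 0.0829 at this dose, from 25.3 ± 1.92 to 383 ± 26.0 CPM.

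Promoters of the members were searched because 12 cytosolic genes moved together. The motif was the core of the C/EBP-ATF composite element, TGATGNAA on either strand, in windows from 250 bases before to 50 after each start (RefSeq, GRCh38.p14). It was found in 3.62% of 35116 windows of all genes and in 4.46% of 27305 gene symbols. Of the 30 members with a window, 8 held it, 7 of them among the 12 cytosolic genes that rose most with Aconiti Lateralis Radix Preparata, of which 10 had a window. None of the 6 windowed genes among the other 8 cytosolic members held it, and of 14 mitochondrial members YARS2 alone did. These stretches are shown to let the matches be compared, with the motif in capitals and the strand of transcription read 5′ to 3′.
AARS1, chr16:70289666-70289713, minus strand: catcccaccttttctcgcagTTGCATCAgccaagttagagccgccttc
GARS1, chr7:30594825-30594872, plus strand: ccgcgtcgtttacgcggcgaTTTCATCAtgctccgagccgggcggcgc
CARS1, chr11:3057404-3057445, minus strand: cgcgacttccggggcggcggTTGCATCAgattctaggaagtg
MARS1, chr12:57488044-57488087, plus strand: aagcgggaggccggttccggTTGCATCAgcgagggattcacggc
IARS1, chr9:92293683-92293730, minus strand: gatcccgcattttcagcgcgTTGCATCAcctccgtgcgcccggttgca
TARS1, chr5:33440957-33440984, plus strand: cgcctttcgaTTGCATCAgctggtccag
NARS1, chr18:57621805-57621832, minus strand: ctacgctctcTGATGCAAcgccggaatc
YARS2, chr12:32756067-32756114, minus strand: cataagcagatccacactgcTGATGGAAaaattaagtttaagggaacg
The 6 with C at the open base (TGATGCAA, found in 0.87% of all windows) were AARS1, CARS1, MARS1, IARS1, TARS1 and NARS1. A match is a description of the letters, not a site of binding. The 12 genes were set apart after their values were seen.

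The mitochondrial synthetases divided in both directions at the high dose of Aconiti Lateralis Radix Preparata. Of 16, 5 rose, 4 fell and 7 were not called, beside 31.5% of all genes up and 28.9% down. Their median log2 change was 0.10, and with total counts alone 3 rose and 5 fell. TARS2, the threonine enzyme, rose most, from 23.5, 22.9 and 22.1 CPM to 34.1, 33.2 and 36.4 (0.60 ± 0.0608, adjusted p = 3.6e-12). VARS2, the valine enzyme, rose from 20.3, 21.0 and 19.5 CPM to 30.2, 30.6 and 28.4 (0.55 ± 0.0616). In both genes the high-dose libraries lay wholly above the vehicle. Smaller rises were those of the tyrosine enzyme YARS2 (0.32 ± 0.0660), the proline enzyme PARS2 (0.26 ± 0.101) and the alanine enzyme AARS2 (0.18 ± 0.0523), the last not called when the third library of either group was left out.

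SARS2, the serine enzyme, fell by 0.42 on the log2 scale, from 20.8, 21.9 and 21.5 CPM to 16.6, 15.7 and 15.9 (adjusted p = 7.97e-07). CARS2 (cysteine) went from 103, 102 and 106 CPM to 85.3, 82.6 and 83.1, a change of -0.31 ± 0.0340. LARS2 (leucine) changed by -0.30 ± 0.0441 and HARS2 by -0.15 ± 0.0552. In SARS2 and CARS2 the high-dose libraries all lay below the vehicle. At the medium dose no mitochondrial member fell: CARS2 rose by 0.12 (113, 113 and 112 CPM), and SARS2 was at 20.7, 21.7 and 20.9 CPM. This depended on the scaling: with total counts alone CARS2 changed by 0.01 at the medium dose, and 2 mitochondrial members fell. The exons of SARS2, CARS2 and VARS2 overlap other genes, and 98.3%, 78.3% and 100% of their values were not whole, reads having been divided by estimate, so their changes are less certain.

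Enzymes for the same amino acid were set side by side in 18 cytosolic and mitochondrial pairs. Since EPRS1, FARS2 and TARS2 each enter more than 1 pair, the 18 are not independent. In 5 pairs both members rose, in 5 the cytosolic member rose while the mitochondrial one was not called, and in 3 the cytosolic member rose while the mitochondrial one fell. In 3 pairs neither was called, in 1 (histidine) both fell, and in 1 (TARS3 with TARS2) the mitochondrial member alone rose. The pairs that moved apart were the cysteine pair (CARS1 1.21, CARS2 -0.31), the serine pair (SARS1 1.13, SARS2 -0.42) and the leucine pair (LARS1 0.79, LARS2 -0.30). For alanine the cytosolic change exceeded the mitochondrial one by 1.56 and for tyrosine by 0.98. Valine ran the other way, with VARS2 at 0.55 and VARS1 at 0.14, and for threonine TARS1 and TARS2 were at 0.87 and 0.60. The differences within pairs were not tested.

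**Figure D4:**
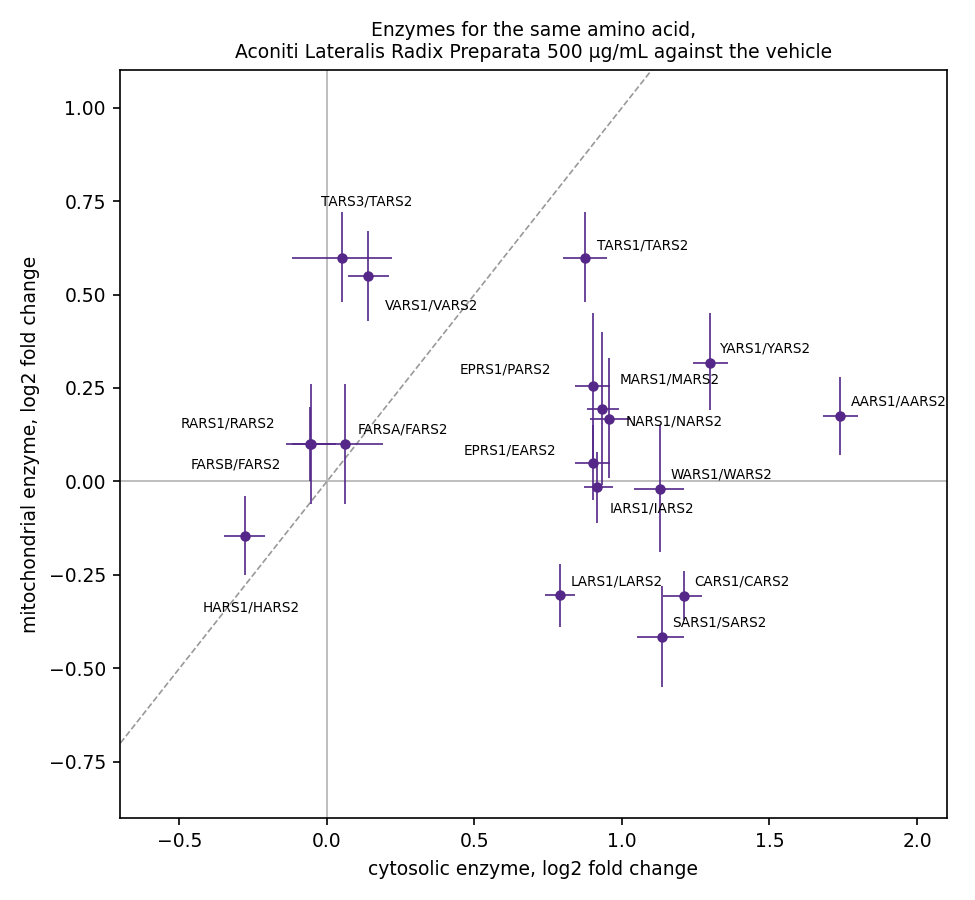
Log2 fold change of the cytosolic enzyme against that of the mitochondrial enzyme for the same amino acid, high dose of Aconiti Lateralis Radix Preparata against the vehicle; bars are 95% intervals and the dashed line marks equal change. Most pairs lie right of the line, CARS1/CARS2, SARS1/SARS2 and LARS1/LARS2 with a mitochondrial member below 0, and VARS1/VARS2, TARS3/TARS2 and 4 pairs nearer to it lie left of it.

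The rise of the cytosolic enzymes was graded by dose. At the medium dose of Aconiti Lateralis Radix Preparata, 13 of 20 cytosolic members rose and 1 fell, and 5 of 16 mitochondrial members rose (16.1% of all genes up and 15% down). The same 12 cytosolic genes changed by 0.47 to 1.02, AARS1 and GARS1 most (1.02 each, 2.03-fold and 2.02-fold). With total counts alone 12 cytosolic members rose and 4 fell, and 2 mitochondrial members rose and 2 fell. At the low dose 8 cytosolic members rose, against 1.15% of all genes up and 1.04% down: AARS1 (0.27), GARS1 (0.22), TARS1 (0.20), YARS1 (0.17), LARS1 (0.16), IARS1 (0.15), MARS1 (0.15) and NARS1 (0.13). No mitochondrial member was called at the low dose by edgeR or DESeq2, and 1 had an unadjusted p under 0.05.

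Against the low dose of the same extract, which shares the code set, 14 cytosolic members rose and 3 fell at the high dose, and 5 mitochondrial members rose and 3 fell (30.4% of all genes up and 27.4% down; 12 and 4 cytosolic, 3 and 5 mitochondrial with total counts alone). GARS1 rose by 1.59 ± 0.0361, AARS1 by 1.47 ± 0.0299 and CARS1 by 1.14 ± 0.0332. For 12 cytosolic genes the libraries of the 3 doses rose in 3 separate steps, which was so for 2 mitochondrial genes, VARS2 and YARS2. Of those 12, 11 also had all low-dose libraries above the vehicle, CARS1 being the exception. Only upward steps were counted, and the share of all genes in such steps was not. The medians differed by 0.69 between the classes (0.72 cytosolic, 0.03 mitochondrial).

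**Figure D5:**
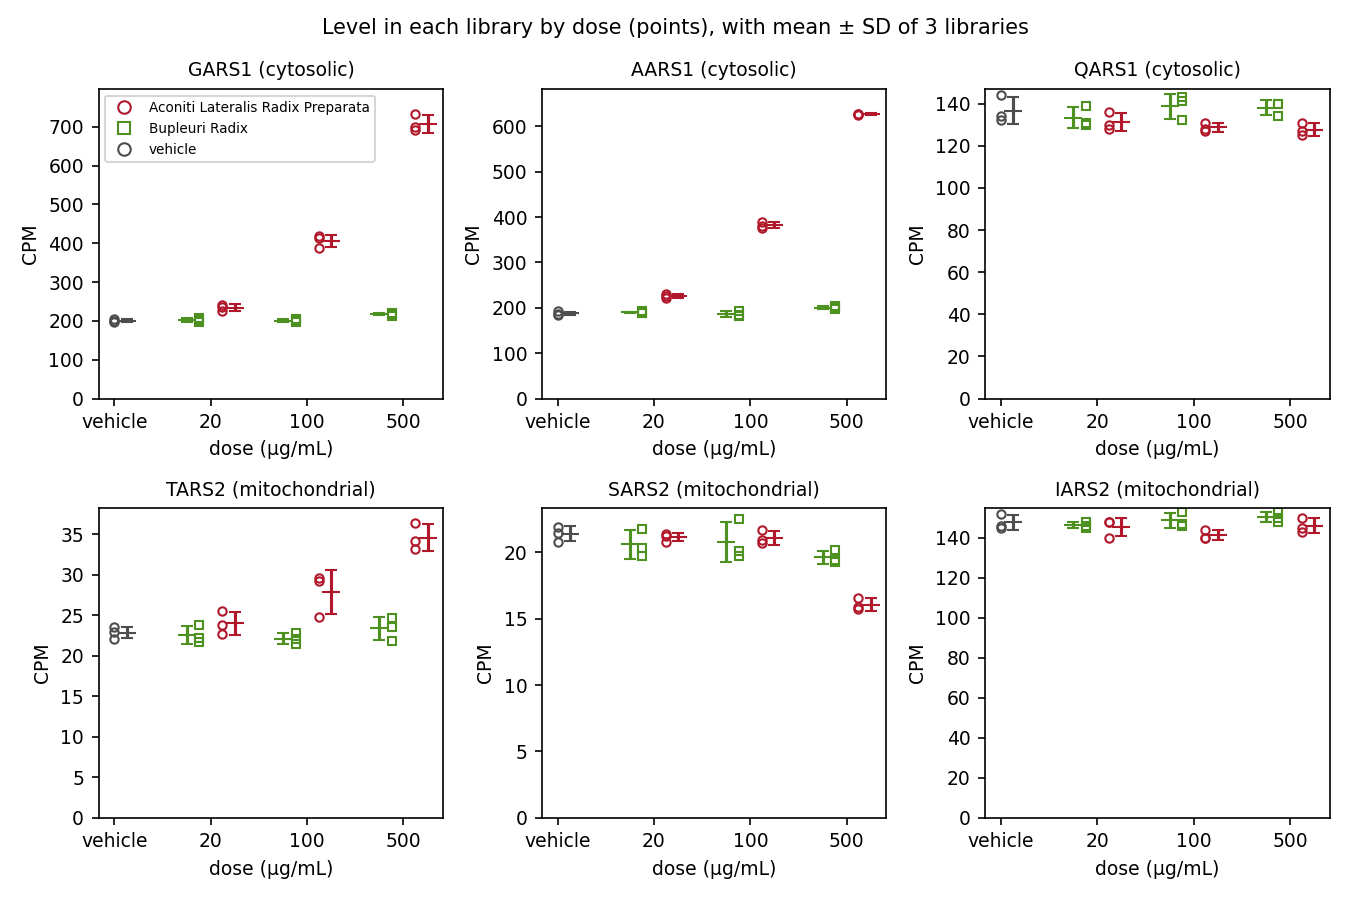
Level in CPM of 3 cytosolic and 3 mitochondrial members in the vehicle and at 20, 100 and 500 µg/mL of Aconiti Lateralis Radix Preparata (red circles) and Bupleuri Radix (green squares), each library a point, with mean and SD of 3. GARS1 and AARS1 reach 691 to 733 and 624 to 628 CPM with 500 µg/mL of the aconite root, TARS2 rises, SARS2 falls at 500 µg/mL, and QARS1 and IARS2 stay near their vehicle level.

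Other genes of the pathway were taken from lists. Of 32 genes of the eIF2α kinases and ATF4 response, 30 rose and 1 fell with the high dose of Aconiti Lateralis Radix Preparata, with a median of 1.60, where 31.5% of all genes rose and 28.9% fell. The transcription factor ATF3 (4.74), the pseudokinase TRIB3 (4.32), DDIT3 (3.92) and NUPR1 (3.44) changed most. At the medium dose 28 rose (16.1% of all genes), and at the low dose 13 rose and 1 fell (1.15% and 1.04% of all genes), with medians of 1.03 and 0.17. XPOT, the exportin that carries tRNA out of the nucleus, rose from 181 ± 4.17 to 456 ± 13.7 CPM (1.34 ± 0.0319), while the elongation factors EEF2 and EEF1A1 rose by 0.38 and 0.33. Of 24 genes of mitochondrial translation and tRNA processing, 10 rose and 6 fell, with a median of 0.03, beside 31.5% of all genes up and 28.9% down. Examples were the tRNA-modifying enzymes PUS1 (0.72), MTO1 (0.62) and TRMU (-0.49) and the ribosome recycling factor GFM2 (0.49). The share of counts from mitochondrially encoded genes moved with this extract too, from 5.14% ± 0.134 in the vehicle to 6.96% ± 0.559, 10.7% ± 0.161 and 9.19% ± 0.169 at the low, medium and high dose (SD, n = 3). Marker sums use total counts alone, with which the median log2 change of all genes at the high dose was -0.12. Summed markers of 3 other cell types were lower at the high dose than in the vehicle. The 4 fibroblast markers stood at 5560 to 5820 CPM in the vehicle and 1300 to 1400 at the high dose, the 4 epithelial markers at 241 to 250 and 81.8 to 86.0 (EPCAM and CDH1 near 0 throughout), and the 5 neuronal markers at 146 to 154 and 41.7 to 43.6. Higher at the high dose were the 4 leukocyte markers (156 to 163, then 181 to 193 CPM) and the 5 oligodendrocyte markers (6.82 to 8.59, then 12.8 to 13.2). The 3 endothelial markers overlapped (0.758 to 1.04 and 0.331 to 0.844), and the 10 astrocyte markers stood at 7120 to 7490 and 6970 to 7010 CPM. All samples are of 1 cell line, so these sums are levels of expression and not numbers of cells of those types. Single genes stood high in them, with medians of 3250 CPM for COL1A1, 1950 for COL1A2, 177 for KRT18, 155 for CD68, 103 for TUBB3 and 7.25 for MBP. A change in the mix of cells within the line was not tested. The part of these shares and markers in the results was not tested either.

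Bupleuri Radix, in the same code set, gave small rises. With the high dose 5 of 20 cytosolic members and 1 of 16 mitochondrial members rose, against 3.01% of all genes up and 4.01% down. MARS1 rose from 136, 139 and 134 CPM to 151, 158 and 153 (0.18 ± 0.0304, adjusted p = 5.12e-05), and YARS1 from 155, 157 and 160 to 175, 175 and 182 (0.17 ± 0.0302). LARS1 (0.12; 275, 286 and 272 CPM against 258, 259 and 246), GARS1 (0.12; 219, 214 and 221) and AARS1 (0.10; 197, 203 and 201) were the other cytosolic members. VARS2, at 23.3, 22.1 and 25.5 CPM, was 0.22 ± 0.0623 higher. In all 6 genes the high-dose libraries lay above the vehicle. This also held for EPRS1, FARSA, NARS1, SARS1, TARS1 and VARS1, which were not called. SARS2 and WARS1, not called either, lay wholly below the vehicle. Leaving out vehicle replicate 1 or 3 or high-dose replicate 3 brought the number called from 6 to 3. Against the low dose, MARS1 (0.12), YARS1 (0.15) and VARS2 (0.21) rose, with 1.92% of all genes up and 2.45% down. Without the second low-dose library 1 member was called. Of the 32 genes of the ATF4 response 9 rose and 1 fell, with a median of 0.09, SLC7A11 (the cystine transporter) rising by 0.45 and TRIB3 by 0.36.

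Most cytosolic members differed between the 2 extracts of this code set at the high dose. Bupleuri Radix was below Aconiti Lateralis Radix Preparata in 13 and above it in 3 of 20 cytosolic members, and below in 5 and above in 4 of 16 mitochondrial members (28% of all genes up and 30.3% down). Scaling by total counts alone gave 12 and 7 cytosolic, and 2 and 5 mitochondrial members. GARS1 differed by -1.70 ± 0.0361 and AARS1 by -1.64 ± 0.0299. The difference between high and low dose itself differed between the 2 extracts in 19 members (44% of all genes): Bupleuri Radix less Aconiti Lateralis Radix Preparata was negative in 12 cytosolic members, at -1.49 ± 0.0509 for GARS1 and -1.40 ± 0.0423 for AARS1, and positive in HARS1 (0.28). With total counts alone, 12 cytosolic members were lower and 4 higher. In the mitochondrial class it was positive in CARS2 (0.36), SARS2 (0.33) and LARS2 (0.25) and negative in TARS2 (-0.48), PARS2 (-0.41) and VARS2 (-0.31).

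With Cimicifugae Rhizoma, VARS1, which is known to bind elongation factor 1, and the complex members KARS1 and RARS1 fell, and AARS1 rose. At the high dose 2 cytosolic members rose and 5 fell, and 3 mitochondrial members rose and 3 fell, against 15.1% of all genes up and 17.5% down. VARS1 fell from 186, 190 and 194 CPM to 155, 151 and 165 (-0.28 ± 0.0337, adjusted p = 5.77e-09), KARS1 from 164, 160 and 163 to 134, 134 and 143 (-0.24 ± 0.0356) and RARS1 from 177, 168 and 174 to 146, 147 and 148 (-0.23 ± 0.0335). FARSB (-0.19) and HARS1 (-0.13) were the other 2. The other complex members named above were not called: EPRS1 (-0.07), IARS1 (-0.04), LARS1 (0.04), MARS1 (0.07) and QARS1. AARS1 rose from 185, 192 and 186 CPM to 227, 219 and 235 (0.28 ± 0.0301, adjusted p = 3.23e-10), and CARS1 by 0.09. The libraries of VARS1, KARS1, RARS1 and AARS1 did not overlap with the vehicle. Nor did those of MARS1, PARS2, NARS1 and RARS2, which were not called. Among the scaffold proteins EEF1E1 (-0.26) and AIMP1 (-0.17) fell, and of 10 genes of cytosolic elongation and tRNA export 8 fell and 1 rose. The ATF4 response list had 14 genes up and 3 down of 32, with a median of 0.10, among them SLC7A11 (0.64) and ALDH1L2 (0.59), a mitochondrial folate enzyme.

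In the mitochondrial class TARS2 rose to 27.2, 26.5 and 31.2 CPM (0.31 ± 0.0609), VARS2 to 23.6, 22.8 and 22.6 CPM (0.18 ± 0.0621) and AARS2 by 0.17. CARS2 fell to 97.1, 90.1 and 89.8 CPM (-0.16 ± 0.0332), WARS2, the tryptophan enzyme, to 11.7, 10.6 and 10.3 CPM (-0.24 ± 0.0858), and IARS2 changed by -0.19. The third library of IARS2, at 112 CPM against 136 and 140, is the library that stood apart, with 7.70% of its counts from mitochondrially encoded genes, and without it IARS2 was not called. Without it and the other library that stood apart 15 members were called. Fitting only the 2 groups compared brought the number called from 13 to 7, and total counts alone gave 9 rises and 6 falls instead of 5 and 8. At the medium dose 5 cytosolic members fell, VARS1 (-0.19), FARSB (-0.16), GARS1 (-0.16), KARS1 (-0.14) and QARS1 (-0.12), with 2.72% of all genes up and 3.92% down. Without the second medium-dose library 2 members were called, without the first 3, and with total counts alone 1 rose and 4 fell. Against the low dose 16 members were called at the high dose, 3 cytosolic up and 5 down, 4 mitochondrial up and 4 down (11.7% of all genes up and 13.5% down). That count was 10 without the third high-dose or the first low-dose library, and with total counts alone 10 members rose and 4 fell.

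Citri Unshius Pericarpium, in the same code set, gave small falls of cytosolic members. At the high dose 9 of 20 cytosolic members fell, and 1 mitochondrial member rose and 2 fell, against 9.82% of all genes up and 11.8% down. TARS1 fell from 207, 200 and 208 CPM to 183, 179 and 178 (-0.19 ± 0.0404, adjusted p = 0.000449), WARS1 from 242, 245 and 244 to 222, 211 and 218 (-0.17 ± 0.0434), and KARS1 from 164, 160 and 163 to 147, 142 and 152 (-0.14 ± 0.0355). The remaining falls, those of SARS1, GARS1, EPRS1, HARS1, RARS1 and IARS1, were between -0.13 and -0.10. TARS2 rose to 26.1, 28.9 and 26.1 CPM (0.24 ± 0.0616), while CARS2 fell to 91.9, 88.6 and 94.1 CPM (-0.18 ± 0.0333) and WARS2 to 11.1, 10.8 and 10.9 CPM (-0.23 ± 0.0863). The libraries of these 6 genes did not overlap with the vehicle. Nor did those of FARSA, NARS1, VARS1 and YARS1, which lay below it but were not called. Without the first vehicle library 7 members were called instead of 12, and with total counts alone 3 cytosolic members fell, 2 mitochondrial members rose and 1 fell. The ATF4 response list had 6 genes up and 4 down, with a median of 0.02.

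Against its low dose, the high dose of Citri Unshius Pericarpium had 6 lower cytosolic members and 2 higher and 1 lower mitochondrial members (8.19% of all genes up and 10% down). No member was called with only the 2 groups compared in the fit, and 5 were called without the third low-dose library, which stood apart, or without the second high-dose library. With total counts alone, 1 cytosolic member was higher and none lower, and the mitochondrial count was as before. Between the 2 extracts at the high dose, 9 members differed (6.51% of all genes up and 5.76% down). AARS1 was lower with Citri Unshius Pericarpium (188, 188 and 182 CPM against 227, 219 and 235), a difference of -0.29 ± 0.0300 (adjusted p = 3.08e-10), as was WARS1 (-0.23), and VARS1 (0.21), IARS2 (0.16) and RARS1 (0.13) were higher. Without replicate 3 of Citri Unshius Pericarpium 5 members were called, with the 2 groups alone 1, and with total counts alone 2 were higher and 4 lower in place of 5 and 4. The change from low to high dose differed in 8 members (11.1% of all genes), AARS1 (-0.28 ± 0.0426) being the 1 member called under all 19 other settings. Without the 2 libraries that stood apart, 3 members were called.

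With Yijung-tang the tryptophan and isoleucine enzymes of both compartments fell. At the high dose 3 cytosolic members rose and 8 fell, and 2 mitochondrial members rose and 4 fell, against 15.3% of all genes up and 16.7% down. WARS1 fell from 242, 245 and 244 CPM to 191, 198 and 215 (-0.28 ± 0.0437, adjusted p = 1.89e-06), and IARS1 from 417, 396 and 389 to 324, 349 and 331 (-0.26 ± 0.0265, adjusted p = 6.74e-11). WARS2 fell from 13.3, 13.7 and 11.4 CPM to 9.61, 10.0 and 10.8 (-0.34 ± 0.0881), and IARS2 from 152, 146 and 145 to 120, 133 and 131 (-0.21 ± 0.0483). No high-dose library of these 4 genes reached the vehicle's lowest. RARS1 (143, 160 and 151 CPM, -0.19), EPRS1 (-0.19), GARS1 (169, 182 and 185 CPM, -0.17), NARS1 (-0.14), AARS1 (169, 169 and 178 CPM, -0.13) and TARS1 (-0.11) fell as well. QARS1 (145, 145 and 152 CPM), CARS1 (64.5, 62.1 and 69.3) and MARS1 (143, 138 and 151) rose by 0.11, 0.09 and 0.08.

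TARS2 rose with Yijung-tang to 29.6, 28.5 and 29.4 CPM (0.35 ± 0.0614, adjusted p = 1.15e-05) and VARS2 to 23.8, 21.8 and 23.6 CPM (0.18). CARS2 fell to 84.5, 86.5 and 87.0 CPM (-0.27 ± 0.0336, adjusted p = 1.48e-08), while YARS2, whose libraries (14.9, 13.6 and 13.4 CPM) overlapped with the vehicle (16.0, 14.8 and 16.5), changed by -0.17 ± 0.0685. The share of counts from mitochondrially encoded genes was 5.94% to 8.21% in these libraries and 5.03% to 5.29% in the vehicle; its part in the result was not tested. Leaving out the third high-dose library brought the number called from 17 to 11. Those called under all 13 other settings were AARS1, EPRS1, GARS1, IARS1, NARS1, RARS1 and WARS1 in the cytosolic class and TARS2, CARS2, IARS2 and WARS2 in the mitochondrial class. At the medium dose MARS1 was called (0.10; 2.73% of all genes up and 3.55% down), and at the low dose IARS1 (-0.09) and IARS2 (-0.17; 2.72% up and 3.65% down), and none of these 3 calls was made under all other settings. Compared with the low dose, 1 cytosolic member rose and 9 fell at the high dose, and 1 mitochondrial member rose and 2 fell (10.2% of all genes up and 11.5% down). With total counts alone 2 cytosolic members rose and 5 fell and 2 mitochondrial members rose and 1 fell, and with only the 2 groups in the fit 5 members were called instead of 13.

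Banhasasim-tang, in the same code set, changed few members. MARS1 rose at the high dose to 150, 149 and 151 CPM (0.14 ± 0.0302, adjusted p = 0.000745), LARS1 to 275, 274 and 282 CPM (0.12 ± 0.0267) and AARS1 to 200, 200 and 202 CPM (0.10). IARS2 fell to 130, 129 and 140 CPM (-0.15 ± 0.0477). These 4 of 36 calls stand beside 7.99% of all genes up and 8.82% down, and 2 members were called without the first vehicle library. Exons of MARS1 overlap those of DDIT3, which rose by 0.39 at this dose, from 25.3 ± 1.92 to 33.2 ± 1.55 CPM. The part of DDIT3 in the MARS1 counts was not tested. The ATF4 response list had 16 genes up and 1 down of 32, with a median of 0.14, CEBPB (0.87) leading and the amino acid transporter SLC38A2 (-0.40) the one that fell. The medium dose had a call for IARS2 (-0.15; 3.8% of all genes up and 4.52% down), the low dose for AARS1 (0.10; 2.62% up and 3.14% down), and the high against the low dose for MARS1 (0.10; 3.08% up and 3.58% down). The call of IARS2 at the medium dose was lost whichever single library was left out, and the other 2 with some.

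The direct comparison at the high dose had Yijung-tang below Banhasasim-tang in 11 cytosolic members and above it in 1, and below in 2 and above in 1 mitochondrial member (11.1% of all genes up and 12.7% down). WARS1 differed by -0.30 ± 0.0433, IARS1 by -0.27 ± 0.0263, AARS1 and EPRS1 by -0.22 each, and CARS2 by -0.25 ± 0.0331. QARS1 was 0.18 higher and TARS2 0.19 higher with Yijung-tang. The change from low to high dose differed in 8 members, 7 cytosolic and CARS2, all lower with Yijung-tang (10.1% of all genes). WARS1 (-0.26), CARS2 (-0.22), IARS1 (-0.21) and AARS1 (-0.18) were called under all 19 other settings. Without the first high-dose library of Yijung-tang 5 members were called, and with total counts alone 2 of 8 members were higher.

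No member was called by edgeR at the medium and low doses of Citri Unshius Pericarpium, the low dose of Cimicifugae Rhizoma or the medium and low doses of Bupleuri Radix. In these 5 comparisons 1, 2, 5, 3 and 3 members had an unadjusted p under 0.05, and DESeq2 called 1 member, at the medium dose of Bupleuri Radix. Of all genes, 2.07%, 1.88%, 1.27%, 0.413% and 0.0756% were called.

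Values of mitochondrial members across extracts stand here side by side. These comparisons share the 3 vehicle libraries. At the high dose TARS2 rose by 0.24 with Citri Unshius Pericarpium, 0.31 with Cimicifugae Rhizoma, 0.60 with Aconiti Lateralis Radix Preparata and 0.35 with Yijung-tang, and stood at 24.7, 23.6 and 21.8 CPM with Bupleuri Radix and 24.5, 25.6 and 26.5 CPM with Banhasasim-tang, neither called. VARS2 rose with 4 extracts (0.18 to 0.55), under all 13 other settings with Aconiti Lateralis Radix Preparata alone. CARS2 fell with 4 extracts (-0.31 to -0.16). IARS2 fell with 3 (-0.21 to -0.15), under all 13 other settings with Yijung-tang alone. WARS2 was called with 3 (-0.34 to -0.23), under all 13 other settings with Yijung-tang but under 5 of them with Citri Unshius Pericarpium and 6 with Cimicifugae Rhizoma. The WARS2 values of Cimicifugae Rhizoma overlapped with those of the vehicle. EARS2, FARS2, MARS2, NARS2 and RARS2 were not called at any high dose. Among the cytosolic members AARS1 rose with 4 extracts (0.10 to 1.74) and fell with Yijung-tang, and TARS3 was not called at any high dose.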

How the data were processed

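Total RNA of 60 SW1783 samples was sequenced as 100-base paired ends from a directional kit, per the labels' protocols. The authors deposited expected counts per gene, and the submitters' processing notes name RSEM 1.3.3, STAR 2.7.3a, Trim Galore 0.6.5 and FastQC 0.11.9 with hg38. Annotation release and strand setting: not given in the sources used here. Of the deposited expected counts 9.22% were not whole, and all were rounded before testing.

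Groups came from the labels. The 57 libraries of 19 groups with 3 libraries were fitted together with edgeR 4.0.16 in R 4.3.3 (filterByExpr by group, TMM scaling, quasi-likelihood test, Benjamini-Hochberg over 17190 genes, called under 0.05). Depth was 18.9 to 36.4 M counts per library. CPM uses TMM-scaled totals, except for cell-type markers, where it uses total counts alone. Log2 CPM has a prior count of 2, and 95% intervals are 1.96 SE wide on either side. Levels per kb use summed exon lengths of GENCODE 29. Promoters are RefSeq windows, and both strands were searched. Bojungikgi-tang, with 1 library per dose, entered no test.

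The members and all lists were chosen with earlier results of these data known. Members were named by the largest called changes at each high dose, up to 4 upward and 4 downward per class, with their partners for the same amino acid; other called members are named beside counts and were chosen after their values were seen. Pathway genes were named by the largest called changes in each list. Where libraries are said not to overlap, the share of all genes without overlap was not counted. Alternatives were DESeq2 1.42.0, RLE scaling, total counts alone, no filter, only the groups compared, a replicate block and each library left out. Counts of 17190 genes were simulated for the high dose of Aconiti Lateralis Radix Preparata. At each fold (1.2, 1.5, 2 and 4) 50 genes were changed. Of genes changed 1.2-fold 62% were recovered, of those changed 1.5-fold 96%, and 5.82% of calls were false. In the real comparison 31.5% of all genes rose and 28.9% fell, so these shares need not hold there.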

Additional observations from a re-analysis of the deposited data

Results flagged for a closer look

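The tested difference between extracts in their change from low to high dose was flagged in each code set, with edgeR's quasi-likelihood test. Between Bupleuri Radix and Aconiti Lateralis Radix Preparata it passed in 19 members, beside 44% of all genes. Bupleuri Radix less Aconiti Lateralis Radix Preparata was negative in 12 cytosolic members, among them GARS1 (-1.49), AARS1 (-1.40), CARS1 (-1.05), YARS1 (-0.98), MARS1 (-0.65) and LARS1 (-0.57), and in TARS2 (-0.48), PARS2 (-0.41) and VARS2 (-0.31) of the mitochondrial class. HARS1 (0.28), CARS2 (0.36), SARS2 (0.33) and LARS2 (0.25) were positive.

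Between Citri Unshius Pericarpium and Cimicifugae Rhizoma it passed in 8 members, beside 11.1% of all genes. Among them, as the former less the latter, were AARS1 (-0.28), WARS1 (-0.25), RARS1 (0.18) and IARS2 (0.25). Between Yijung-tang and Banhasasim-tang it passed in 8 members (10.1% of all genes), among them WARS1 (-0.26), CARS2 (-0.22), IARS1 (-0.21), AARS1 (-0.18) and EPRS1 (-0.15).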

How the results depend on the processing

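The difference of the class medians, not tested, changed sign with single libraries left out at the high dose of Yijung-tang (0.01, from -0.04 to 0.03) and Cimicifugae (-0.02, from -0.04 to 0.02), and total counts alone turned the split of cytosolic calls for Citri high against low from 0 up and 6 down to 1 up and 0 down. The counts for each comparison of Aconiti Lateralis Radix Preparata stayed within 1.5 times. In what follows a count is of the 36 members called, and extracts are named by their first word. The cause of a changed count was not tested, also where a setting uses fewer samples. With DESeq2 the count went from 0 to 1 (Bupleuri medium) and from 1 to 2 (Yijung-tang medium, Banhasasim-tang medium and low). With RLE scaling Banhasasim-tang medium went from 1 to 2. With total counts alone it went from 12 to 6 (Citri high), 9 to 4 (Citri high against low) and 1 to 0 (Yijung-tang medium, Banhasasim-tang low). Without the filter it went from 12 to 5 (Citri high), 5 to 3 (Cimicifugae medium), 16 to 9 (Cimicifugae high against low), 3 to 1 (Bupleuri high against low), 17 to 11 (Yijung-tang high), 2 to 1 (Yijung-tang low) and 1 to 0 (Yijung-tang medium, Banhasasim-tang low and high against low). With only the groups compared it went from 0 to 1 (Citri medium), 9 to 0 (Citri high against low), 13 to 7 (Cimicifugae high), 16 to 7 (Cimicifugae high against low), 1 to 3 (Yijung-tang medium), 13 to 5 (Yijung-tang high against low), 4 to 7, 1 to 3 and 1 to 2 (Banhasasim-tang high, medium and low) and 1 to 0 (its high against low). In that fit Citri against Cimicifugae at the high dose went from 9 to 1, and the differences of dose changes from 8 to 1 (Citri, Cimicifugae) and 8 to 5 (Yijung-tang, Banhasasim-tang).

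Replicate numbers paired the samples weakly at most, as same-numbered samples correlated between -0.056 and 0.076 in their deviations. Among the 3 libraries of the other group, the own number correlated best in 23 of 54 cases against the vehicle, 6 of 9 between high doses and 9 of 18 between doses. Whether this was more often than without pairing was not tested. With a replicate block the count went from 0 to 1 (Cimicifugae low) and 1 to 2 (Banhasasim-tang medium and low), and with the replicate block on the code set alone from 3 to 5 (Bupleuri high against low) and 1 to 0 (Banhasasim-tang high against low). Without the 2 libraries that stood apart, chosen after seeing the data, it went from 9 to 5 (Citri high against low), 3 to 5 (Bupleuri high against low), 1 to 3 (Yijung-tang and Banhasasim-tang medium), 1 to 2 (Banhasasim-tang low) and 8 to 3 (Citri and Cimicifugae dose changes).

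Leaving out single libraries gave 7 to 10 for Citri high, 5 to 10 for its high against low, 2 to 4 for Cimicifugae medium, 10 to 17 for its high against low, 3 to 6 for Bupleuri high, 1 to 2 for its high against low, 11 to 17 for Yijung-tang high, 0 to 1 and 0 to 2 for its medium and low dose, 2 to 6 for Banhasasim-tang high, 0 to 0 and 0 to 1 for its medium and low dose, 0 to 1 for its high against low, 5 to 9 for Citri against Cimicifugae, and 3 to 9 and 5 to 10 for the dose changes of Citri with Cimicifugae and Yijung-tang with Banhasasim-tang. The cytosolic less the mitochondrial median ran from 0.03 to 0.09 (Bupleuri high), 0.02 to 0.06 (its high against low), -0.04 to 0.03 (Yijung-tang high), -0.08 to -0.03 (its high against low) and 0.01 to 0.05 (Banhasasim-tang high against low). Depth limits the least abundant members most, the lowest count being 112.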

Other observations

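Bojungikgi-tang, another decoction, was given at the same 3 doses with 1 library per dose, so its values have no replicate check. The median log2 ratio to the vehicle mean over the 20 cytosolic members was -0.02 at the low, 0.00 at the medium and 0.01 at the high dose, and over the 16 mitochondrial members it was -0.01, 0.02 and 0.00. Single members lay between -0.15 and 0.22. From low to high dose GARS1 stood at 190, 193 and 188 CPM, AARS1 at 184, 193 and 201 CPM and TARS2 at 22.9, 21.0 and 24.6 CPM.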
